A study of Homo sapiens with 9 samples.

Results

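Both short hairpin RNAs (shRNA5 and shRNA7) used to deplete RECQL5 were compared with each other, through all RNA polymerase II (RNAPII) peaks deposited for each. The shRNA5 list held 23698 peaks and the shRNA7 list 32124 peaks, together 55822 of the 142069 peaks in the 5 RNAPII lists of the study. All cells were HEK293, a human embryonic kidney line. Lentivirus carried either of the RECQL5 hairpins or a control shRNA into the cells, whose RNAPII was then mapped by chromatin immunoprecipitation and sequencing (ChIP-seq). The other 2 lists came from T-REx cells of the same line, in which doxycycline switches on a RECQL5 plasmid, grown at 0 or 1 ng/ml of the drug. Each list came from 1 library and was called by the authors against a library made with non-specific IgG, and no hairpin was sequenced more than once, so nothing below has a replicate check. The control shRNA list was short, with 5287 peaks, and the lists without and with doxycycline held 47060 and 33900. The study's methods give rounded peak numbers for wild-type cells and both hairpins that are larger than the control and hairpin lists used here, and every overlap below describes these lists only. The methods also state similar read numbers within the hairpin experiment and within the doxycycline experiment, with fewer reads in the latter. Tags of the doxycycline lists are therefore set beside those of the hairpin lists without correction for depth.

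RECQL5 is a DNA helicase of the RecQ family that binds RNAPII directly and acts on transcript elongation. RNAPII initiates at the transcription start site (TSS), often pauses just downstream, and then travels through the gene body and past the site of cleavage before it is released. The antibody used, 4H8, recognises RNAPII on its repeated C-terminal domain, so the peaks hold paused and elongating polymerase together. A hairpin acts on the mRNA, and the peaks are therefore no check of the depletion. At the RECQL5 TSS no peak was listed upon shRNA5 or with the control shRNA, whereas the peak upon shRNA7 held 280 tags and those of the doxycycline pair 135 (0 ng/ml) and 196 (1 ng/ml).

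The genome sequence under 1 strong peak of each class is given as an example and does not stand for its class. For peaks found with both hairpins and for those found with only 1 of them, the highest-scoring promoter-proximal peak and gene-body peak are given, with 60 bases on either side of the summit. Sequences are from the plus strand of GRCh37, in lower case with CpG dinucleotides in capitals.
Both hairpins, promoter-proximal, 255 bp from the TSS of ZNFX1, chr20:47895158-47895278: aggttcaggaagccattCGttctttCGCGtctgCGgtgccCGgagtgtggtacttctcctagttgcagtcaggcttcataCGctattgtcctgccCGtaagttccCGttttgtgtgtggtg
Both hairpins, gene body of VMP1, chr17:57915299-57915419: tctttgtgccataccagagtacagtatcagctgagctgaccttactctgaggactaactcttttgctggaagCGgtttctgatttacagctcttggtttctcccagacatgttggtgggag
shRNA5 only, promoter-proximal, 1826 bp from the TSS of CSNK1D, chr17:80229418-80229538: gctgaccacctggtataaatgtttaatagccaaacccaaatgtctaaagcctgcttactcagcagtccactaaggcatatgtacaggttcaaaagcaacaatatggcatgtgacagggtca
shRNA5 only, a peak reaching past the end of HNRNPC, chr14:21674335-21674455: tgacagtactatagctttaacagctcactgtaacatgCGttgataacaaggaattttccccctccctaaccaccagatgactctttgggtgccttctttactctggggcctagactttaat
shRNA7 only, promoter-proximal, 1417 bp from the TSS of LTBP3, chr11:65306677-65306797: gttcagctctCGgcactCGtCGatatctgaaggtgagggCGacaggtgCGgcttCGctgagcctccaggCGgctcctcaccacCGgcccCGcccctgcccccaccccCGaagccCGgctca
shRNA7 only, gene body of ZNF337, chr20:25655304-25655424: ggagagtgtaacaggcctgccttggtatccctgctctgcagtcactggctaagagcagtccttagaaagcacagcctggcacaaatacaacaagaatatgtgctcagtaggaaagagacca
The windows at ZNFX1 and LTBP3 held 8 and 11 CpG dinucleotides, whereas the other 4 held 0 or 1. The peaks around them were strong in tags, with 2124 tags at ZNFX1, 2078 at VMP1, 763 at CSNK1D, 2075 past HNRNPC, 634 at LTBP3 and 933 at ZNF337.

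Most shRNA5 peaks had a counterpart upon shRNA7, but about as many shRNA7 peaks lacked one as had one. Of the shRNA5 peaks, 20183 overlapped an shRNA7 peak by at least 1 bp, a share of 85.2% (95% Wilson interval 84.7 to 85.6%). Of the shRNA7 peaks, 16688 overlapped an shRNA5 peak, or 51.9% (51.4 to 52.5%). These intervals, and those below, cover counting error only and not the spread between cultures. When the lists were first cut to peaks with a false discovery rate (FDR) of at most 5%, the shares were 77.4% and 67.1%. That filter removed no shRNA5 peak, since the highest FDR in that list was 1.69%, and removed 10485 shRNA7 peaks.

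The 15436 peaks found upon shRNA7 only were weak. They held a median of 65 tags in 1558 bp with a significance score (−10 times log10 of the p-value of MACS, the authors' peak caller) of 80.6, against 165 tags, 2841 bp and a score of 238 for the shRNA7 peaks that had a counterpart. They made up 48.1% of that list and held 19.5% of its tags. Their median FDR was 5.63%, and 8327 of them were above 5%. The 3515 peaks found upon shRNA5 only held a median of 62 tags in 1487 bp with a score of 72.2, against 93 tags, 1907 bp and 126 for the shared ones. Peaks seen with 1 hairpin were thus shorter and held fewer tags than shared peaks in both lists.

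Peak length separated the lists further. Of the shRNA7 peaks, the share with an shRNA5 counterpart was 13.4% for peaks of up to 1 kb, 34.8% between 1 and 2 kb, 60.6% between 2 and 5 kb, 97.8% between 10 and 20 kb and 98.8% above 20 kb. The shRNA5 peaks did not follow this order. Their share was 69.2% up to 1 kb and 91.2% between 2 and 5 kb, but 82.8% between 10 and 20 kb and 65.8% above 20 kb. Hence 97 of the 563 shRNA5 peaks of 10 to 20 kb and 27 of the 79 longer ones had no shRNA7 peak anywhere within them. In the shRNA7 list, the corresponding numbers were 29 of 1314 and 3 of 257.

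**Figure D1:**
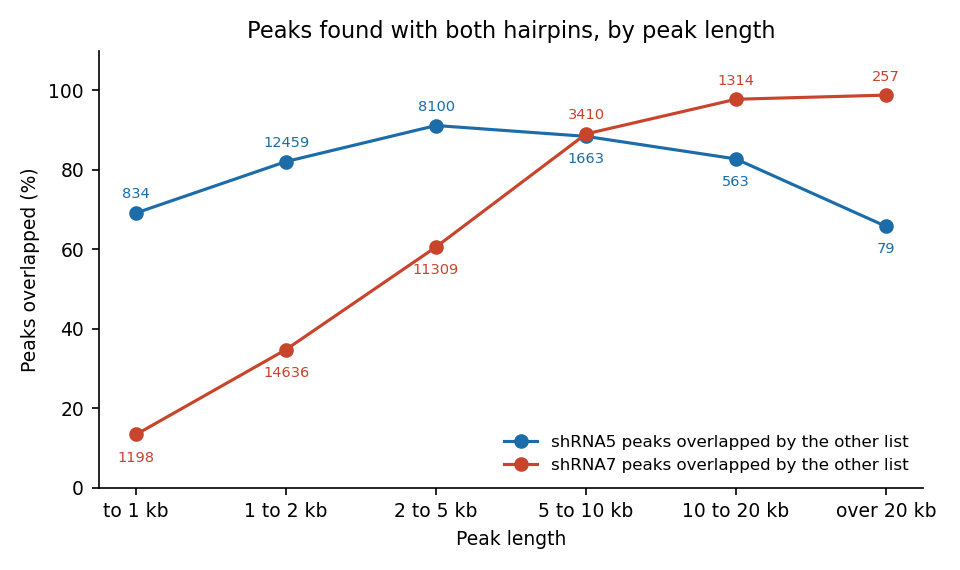
Share of the peaks of each hairpin list that a peak of the other list overlapped (vertical axis, percent) by peak length (horizontal axis); small numbers give the peaks in each length class. The shRNA7 share climbed from 13.4% to 98.8% with length, while the shRNA5 share was 91.2% at 2 to 5 kb and 65.8% above 20 kb.

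Where both hairpins gave a signal, shRNA7 peaks were wider and often spanned several shRNA5 peaks. Overlapping peaks of the lists formed 15402 joint regions, of which 11725 held 1 peak of each list, 2523 held several shRNA5 peaks under 1 shRNA7 peak and 508 the converse. An shRNA7 peak covered 2 or more shRNA5 peaks in 3320 cases, and up to 10, whereas 1226 shRNA5 peaks covered 2 or more shRNA7 peaks, and up to 5. Over the 14971 joint regions with at least 100 tags, the median ratio of shRNA7 to shRNA5 was 1.56 for tags, 1.29 for covered bases and 1.17 for tags per kb.

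Tags per kb varied little between the hairpins. Relative to the median ratio, 1284 joint regions (8.58%) lay more than 2-fold toward shRNA7 in tags and 649 (4.34%) toward shRNA5. In tags per kb, 12 regions (0.0802%) lay past the same limit toward shRNA7 and 4 (0.0267%) toward shRNA5, and the middle 90% of the ratios ran from 0.885 to 1.57. In covered bases 1322 regions lay past 2-fold of the median toward shRNA7 and 305 toward shRNA5. Scaling to the total tags in peaks instead gave 6.04% and 7.21%, and regions of single peaks that share at least 50% of both gave 0.806% and 2.91%. Which direction had more regions thus depended on the scaling and on the overlap required. In bulk cells, more RNAPII per cell and more cells with RNAPII at a site cannot be told apart.

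By position, peaks found with 1 hairpin lay mostly inside genes. A peak was called promoter-proximal when any base of it lay within 500 bp of a protein-coding TSS. This held for 46.4% of the shRNA7 peaks with a counterpart and 16.4% (2538 of 15436) of those without, and for 39.4% and 17.2% (603 of 3515) of the shRNA5 peaks. With a score of at least 100 in both lists, it held for 27.0% of the shRNA7-only and 34.8% of the shRNA5-only peaks. Gene-body peaks made up 68.2% of the shRNA7-only peaks and 66.2% of the shRNA5-only peaks, against 43.4% and 47.9% of the shared peaks. In gene bodies the summit fell in an exon for 11.3% of the shRNA7-only and 9.37% of the shRNA5-only peaks. Among shared gene-body peaks it did so for 14.37% upon shRNA7 and 17.004% upon shRNA5. Most gene-body peaks, shared or not, thus had their summit outside annotated exons. Few 1-hairpin peaks lay further than 5 kb past any coding gene and outside annotated long non-coding RNA genes. They were 4.87% of the shRNA7-only and 7.34% of the shRNA5-only peaks.

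Base composition differed by position. The 2 kb around the summit of shRNA7-only peaks had a median AT content of 58.6% (58.5 to 58.8%), and shRNA5-only peaks 56.8% (56.4 to 57.1%), against 52.1% and 52.9% for the shared peaks of these lists. Within promoter-proximal peaks the values were 42.4% for shRNA7-only, 45.9% for shRNA5-only and 45.2 to 45.5% for shared peaks. Within gene bodies they were 60.3%, 58.6% and 58.8 to 59.4%. The shRNA7-only peaks therefore had the lowest AT content of these classes at promoters and the highest inside genes. With a score of at least 100 in both lists the overall medians were 56.9% for shRNA7-only and 52.9% for shRNA5-only peaks.

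Some of the most heavily occupied genes had a broad TSS peak upon shRNA5 and no TSS peak upon shRNA7. The regions with the most tags among those found upon shRNA5 only covered HNRNPC, TRA2B and RBM39, which encode RNA-binding proteins that act in splicing, then RSRC2 with its neighbours ZCCHC8 and KNTC1, and DEK, which encodes a chromatin protein. Peaks upon shRNA7 covered 0% of the gene bodies of HNRNPC, TRA2B, RBM39 and RSRC2. They covered 54.8% of ZCCHC8 and 6.38% of KNTC1, against 25.7% and 2.10% upon shRNA5, and 12.2% of DEK, against 88.6%. At HNRNPC the shRNA5 peak ran over chr14:21699722-21738646, 38925 bp with 4100 tags, from -993 bp to 37931 bp relative to the TSS. Its score was 168, low beside its tags. The peaks at the same TSS held 1400 tags with the control shRNA, 842 without doxycycline and 1609 with it. All peaks overlapping that region held 2044, 1789 and 3280 tags in these lists. Upon shRNA7 no peak was listed at the TSS or anywhere in the gene. The nearest upstream peak, which upon shRNA7 ran from -40277 to -38706 bp, was in all 5 lists, with 144 tags upon shRNA5 and 115 upon shRNA7.

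TRA2B had 3082 tags upon shRNA5, in a peak of 29402 bp at chr3:185626913-185656314, and none upon shRNA7. Peaks at its TSS held 177 tags with the control shRNA, 1625 without doxycycline and 2052 with it. Those overlapping the whole region held 1841 tags in 5 control peaks, and 1625 and 2125 in the doxycycline pair. RBM39 had 2845 tags upon shRNA5 in 21426 bp and none upon shRNA7. Its TSS peaks held 1550 tags with the control shRNA, and 1193 and 1374 in the doxycycline pair, and over the whole region 1896, 1647 and 1683. Both genes were fully or almost fully under peaks upon shRNA5, with 100% and 99.4% of the gene body covered. PAF1, which encodes a subunit of the PAF elongation complex, and the Mediator gene MED29 share 1 peak of 2434 tags upon shRNA5, against 903 with the control shRNA, 436 and 472. At its TSS DEK had 2540 tags upon shRNA5, none upon shRNA7 or with the control shRNA, and 196 and 144. Peaks overlapping the whole shRNA5 region of DEK held 988 tags in 2 control peaks, and 671 and 1085 in the doxycycline pair. Further into the gene, 1 shRNA7 peak held 1434 tags. These genes thus had a TSS peak in both doxycycline lists and, except DEK, in the control list, and in the shRNA7 list had none.

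This was general for broad shRNA5-only peaks. Of the 97 with 10 to 20 kb, 88.7% overlapped a control shRNA peak, 97.9% a peak without doxycycline and 99.0% a peak with it. Of the shRNA5 peaks of that length that were shared with shRNA7, 88.2%, 97.0% and 96.6% did so. Of the 29 shRNA7-only peaks of that length, 6.90% overlapped a control peak, and 79.3% and 58.6% overlapped peaks without and with doxycycline. Over peaks of every length, these shares were 0.285%, 27.1% and 19.3% for the 15436 shRNA7-only peaks and 11.7%, 42.0% and 37.6% for the 3515 shRNA5-only peaks.

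The converse case was rare and GMNN was its leading example. GMNN encodes geminin, an inhibitor of replication licensing. Its shRNA7 peak at chr6:24774476-24795978 held 2418 tags in 21503 bp, with no shRNA5 peak. Peaks at the TSS held 223 tags with the control shRNA, and 162 and 193 in the doxycycline pair. All peaks overlapping the region held 693, 376 and 434 tags in these lists. The other 4 regions with the most tags upon shRNA7 only touched ZNF302 with SCGB2B2 (2036 tags), NPC1 (1770), ENAH (1712) and ETV7 (1702), of which NPC1 encodes a lysosomal cholesterol transporter and ENAH an actin regulator. None of these 4 regions overlapped a control peak, and the one at ETV7 overlapped no peak of any other list. The 5 strongest shRNA5-only regions overlapped between 2 and 5 control peaks each.

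**Figure D2:**
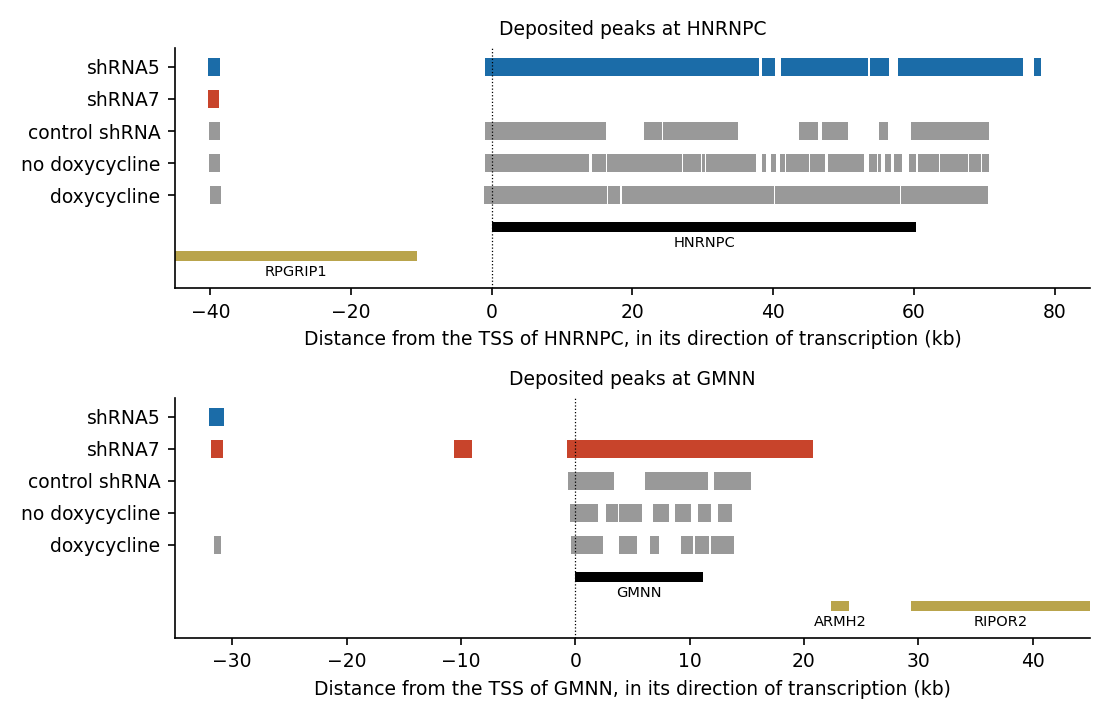
Deposited peaks (bars) of the 5 lists around HNRNPC and GMNN, by distance from the TSS in the direction of transcription (kb), with the genes below. Peaks lay over HNRNPC in every list but shRNA7 and over GMNN in every list but shRNA5, while the most distant upstream peak at each locus was present with both hairpins.

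To count such sites with the same reference, 4648 control shRNA peaks that both doxycycline lists also held were taken as recurrent peaks. Of these, 4079 (87.8%) overlapped a peak with both hairpins, 478 (10.3%, interval 9.44 to 11.2%) with shRNA5 but not shRNA7, 31 (0.667%, 0.470 to 0.945%) with shRNA7 but not shRNA5, and 60 with neither. The 478 were longer than the 4079 found with both hairpins, with medians of 2768 and 1861 bp, and held more tags in the control list, 147 against 93. They lay in 187 stretches without an shRNA7 peak, whose median extent was 68.9 kb. The shRNA5 peaks over them had a median width of 8364 bp and 212 were above 10 kb wide. The same stretches held 118 of the 124 shRNA5-only peaks above 10 kb, HNRNPC, TRA2B and RBM39 among them, and 788 (22.4%) of all 3515 shRNA5-only peaks. Each stretch is the gap between shRNA7 peaks around 1 or more of the 478, so shRNA5-only peaks gather there by construction. Whether peaks were never called there upon shRNA7, or are missing from the list used here, cannot be told apart, and this holds for every shRNA5-only value in these stretches. The 31 likewise lay in 27 stretches without an shRNA5 peak, GMNN among them, with a median extent of 102 kb. For those stretches the same limit applies to the shRNA5 list. Allowing a hairpin peak within 1 kb left 460 and 27 in place of 478 and 31. The comparison with recurrent peaks was added after the data had been seen.

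The missing recurrent peaks were unevenly spread over the chromosomes. Of the 478, 104 lay on chromosome 17 and 104 on chromosome 19, together 43.5%, while these chromosomes held 19.1% of all recurrent peaks. The share missing upon shRNA7 alone was 104 of 453 on chromosome 17, 104 of 434 (24.0%) on 19, 35 of 152 on 15, 11 of 51 (21.6%) on 21 and 33 of 134 (24.6%) on X. On the remaining chromosomes it ran from 0% on 4 and 8 to 11.7% on 22. The ratio of peak numbers, shRNA7 over shRNA5, was also lowest on 17 and 19. There the shRNA7 list held 0.965 times (1796 against 1861) and 0.973 times (1459 against 1500) as many peaks as the shRNA5 list. On the other autosomes and X the ratio ran from 1.18 on 22 and 1.29 on 1 to 1.96 on 13 and its maximum on 8, where 807 peaks stood against 404. Tags per kb in joint regions of 1 peak each differed much less, with median ratios of 1.11 on chromosome 6 to 1.23 on 19. Leaving out chromosomes 17 and 19 changed the shared shares from 85.2% to 86.5% and from 51.9% to 51.0%.

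**Figure D3:**
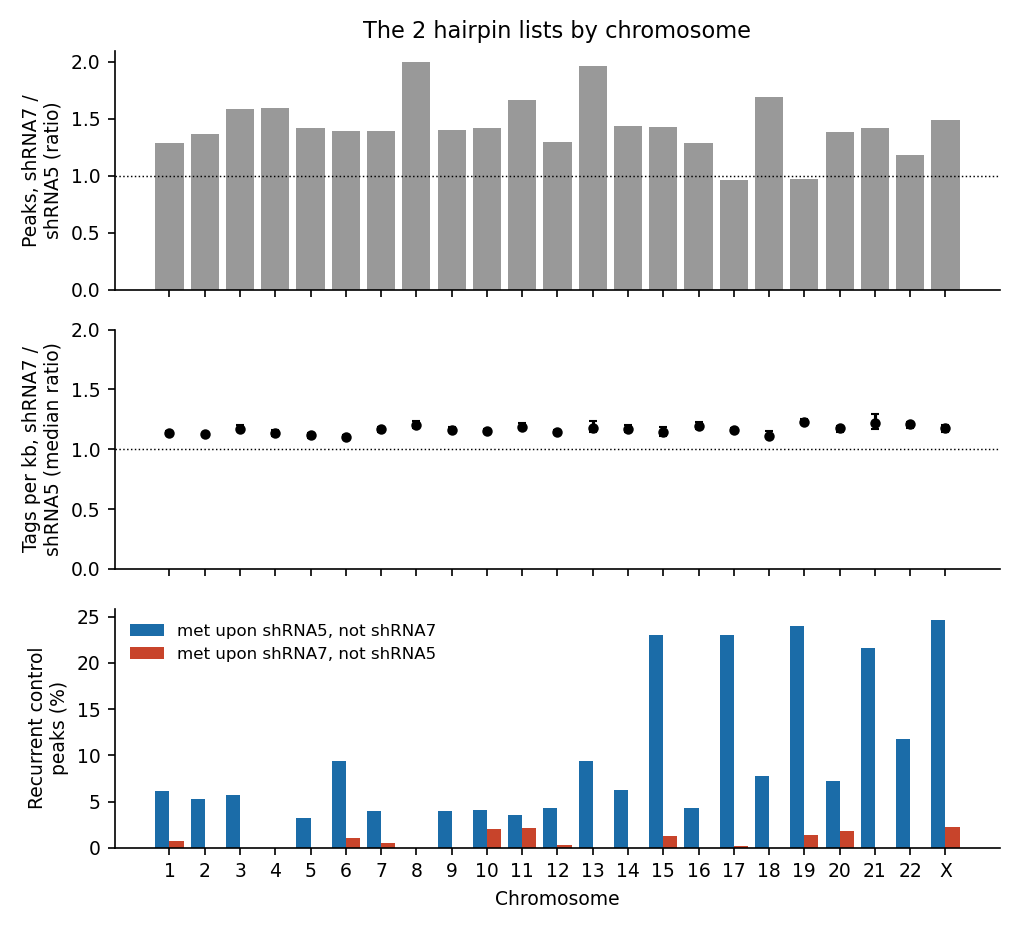
Values by chromosome, Y left out: the ratio of peak numbers, shRNA7 over shRNA5 (top), the median ratio of tags per kb in joint regions with 95% order-statistic intervals (middle) and the share of recurrent control peaks found with only 1 hairpin (bottom, percent). The top ratio fell below 1 on chromosomes 17 and 19, where 104 recurrent peaks each were found upon shRNA5 and not upon shRNA7, while the middle ratio stayed between 1.11 and 1.23.

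At the level of genes, each of 19794 protein-coding genes was represented by its longest coding transcript. A TSS peak was present with both hairpins at 7550 genes (38.1%), upon shRNA7 only at 2089 (10.6%), upon shRNA5 only at 505 (2.55%) and with neither at 9650. The shRNA7-only TSS peaks were small, with a median of 79 tags in 1593 bp, and 84.6% had their summit within 1 kb of the TSS. The shRNA5-only TSS peaks were larger, with a median of 165 tags in 2661 bp, and 74 of the 505 (14.7%) were above 10 kb. Requiring an FDR of at most 5% gave 1362 and 910 genes, and lists of equal length 1547 and 782. Of the 505 shRNA5-only genes, 279 (55.2%) had their TSS in one of the 187 stretches without an shRNA7 peak, as had 71 of the 74 above 10 kb and 2.23% of all genes. Since the stretches were drawn around recurrent peaks found upon shRNA5 only, a high share of shRNA5-only genes there follows from their definition. Without chromosomes 17 and 19, 305 genes were found upon shRNA5 only and 1849 upon shRNA7 only.

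The genes found with 1 hairpin differed in the other lists too. Of the 505 shRNA5-only genes, 39.8% had a TSS peak with the control shRNA, 88.7% without doxycycline and 80.0% with it, close to 37.5%, 96.3% and 90.6% of the genes found with both hairpins. Of the 2089 shRNA7-only genes, 0.670% had one with the control shRNA, 74.2% without doxycycline and 47.4% with it. Of the genes found with neither hairpin, 0.104%, 11.2% and 5.02% did.

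The 10 genes with most tags among the shRNA7-only genes lay under peaks centred elsewhere. They included RBBP7 (4738 tags), a histone-binding protein gene, IRS4 (4465), an insulin receptor substrate gene, ACTG1 (4252), which encodes cytoplasmic actin, and the homeobox gene HOXD9 (3337). The longest shRNA7 peak at each of the 10 TSSs was 16746 to 47398 bp long, and the summits lay 8735 to 26773 bp from the TSS. Upon shRNA5, peaks that did not reach the TSS window covered 36.9% of the gene body of RBBP7, 90.4% of IRS4 and 28.7% of ACTG1.

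Genes with TSS peaks in both lists mostly had more tags upon shRNA7, in wider peaks. Among 5586 such genes with at least 200 TSS tags in both lists together, the median ratio was 1.69, and 1018 (18.2%) lay more than 2-fold above it and 177 (3.17%) more than 2-fold below it. The shRNA7 peak was wider at 82.2% of them and held more tags per kb at 86.1%, with a median ratio of 1.22. In tags per kb, 35 genes (0.627%) lay past 2-fold of the median toward shRNA7 and 1 (0.0179%) toward shRNA5. That gene was NASP, which encodes a histone chaperone and was named after its value was seen, with 114 tags per kb upon shRNA5 and 69.4 upon shRNA7.

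The largest tag ratios came from neighbours joined under 1 shRNA7 peak. ALYREF, an mRNA export factor gene, had 69 TSS tags upon shRNA5 in 1242 bp and 6853 upon shRNA7 in a peak of 52769 bp, the longest of that list, whose summit lay 24070 bp downstream of its TSS. It had no TSS peak with the control shRNA, 132 tags without doxycycline and 116 with it. The same shRNA7 peak covered P4HB, a protein disulfide isomerase gene (109 tags upon shRNA5), and ANAPC11, a subunit gene of the anaphase-promoting complex (122 tags in 2 peaks). At each of the 10 genes with the largest ratios, from 47.0 to 99.3, the longest shRNA7 peak at the TSS had 19765 bp or more.

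The smallest ratios were at genes where shRNA5 gave the wider peak. LRRC59 had 878 tags in 12722 bp upon shRNA5 and 136 tags in 1995 bp upon shRNA7, against 91 with the control shRNA, 82 and 90. Its density was 69.0 and 68.2 tags per kb. SNRPF, a core spliceosomal protein gene, had 854 tags upon shRNA5 and 135 upon shRNA7, at 59.1 and 67.6 tags per kb. CYCS, the cytochrome c gene, had 1154 and 363 tags at 90.8 and 126 tags per kb, and KIF23, a kinesin gene needed for cytokinesis, 960 and 236 tags at 60.1 and 69.9. In each of these 4 genes the tag ratio lay between 0.155 and 0.315 and the density ratio between 0.988 and 1.39.

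**Figure D4:**
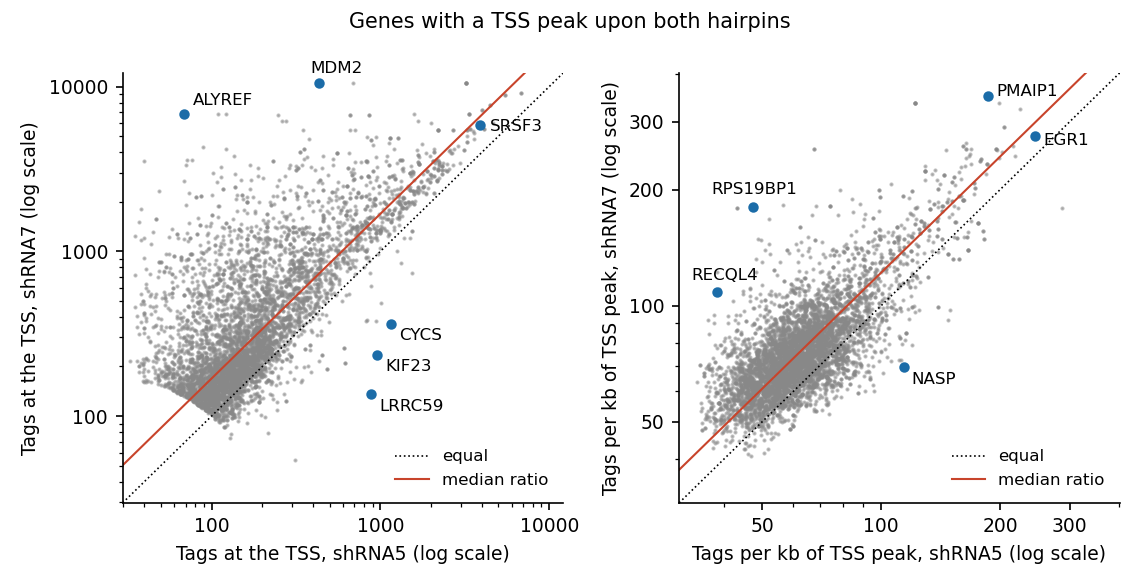
TSS peaks of 5586 genes upon shRNA5 (horizontal) and shRNA7 (vertical), as tags (left) and tags per kb (right), log scales. Each grey point is a gene, blue points are named, the dotted line marks equality and the red line the median ratio (1.69 and 1.22). Tags scattered widely around the line, with ALYREF and LRRC59 at opposite ends, and tags per kb scattered less. The curved lower edge on the left is the minimum of 200 tags.

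Peak summits at the TSS lay at nearly the same place with both hairpins. Over 7477 genes with exactly 1 TSS peak in each list and these overlapping, the shRNA7 summit lay a median of 5 bp (2 to 7 bp) further downstream, in the direction of transcription. The summits were within 100 bp of each other at 56.1% of the genes, and more than 1000 bp apart at 8.77%. Such genes share peaks where promoters face each other, so they rested on 6331 pairs of peaks.

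The edges moved more than the summits. The downstream edge lay at a median of 972 bp past the TSS upon shRNA5 and 1284 bp upon shRNA7, and the upstream edge 876 and 1033 bp before it. Gene by gene, the median gain upon shRNA7 was 228 bp (214 to 241) downstream and 140 bp (132 to 149) upstream. The shRNA7 peak reached more than 1000 bp further downstream at 1960 genes, against 174 where the shRNA5 peak did. Upstream these numbers were 1381 and 58. The TSS peaks were therefore wider on both sides upon shRNA7, more so downstream, with 69.0 against 56.4 tags per kb at the median.

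Inside genes, shRNA7 covered more of the gene body. In the 7550 genes with a TSS peak in both lists, peaks covered 13.4% of the gene-body bases upon shRNA7 and 7.63% upon shRNA5, and 6045 genes had more covered bases upon shRNA7 and 948 fewer. By number of separate gene-body peaks, 3020 genes (40%) had more upon shRNA7, 1382 (18.3%) more upon shRNA5 and 3148 had equal numbers. Of the 1382, 1056 nonetheless had more bases covered upon shRNA7. The order of these peak counts depended on the filter, since with an FDR of at most 5% 1682 genes had more gene-body peaks upon shRNA7 and 1926 more upon shRNA5.

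The surplus grew with gene length. Genes above 100 kb had 4608 gene-body peaks upon shRNA7 and 2381 upon shRNA5, a ratio of 1.94 (1.84 to 2.03). The ratio was 1.49 (1.44 to 1.55) for genes of 30 to 100 kb, 1.13 (1.07 to 1.19) for 10 to 30 kb and 0.958 (0.868 to 1.06) for shorter genes. Bases covered did not share this crossing. Even in genes of up to 10 kb 66.0% of the gene body was covered upon shRNA7 and 44.1% upon shRNA5.

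Single genes showed both patterns. ASCC3, a helicase gene of 373136 bp, had 6 gene-body peaks upon shRNA5 and 48 upon shRNA7, covering 5.05% and 30.1% of its body. PCNX2 had 8 and 33, EPHA7, an ephrin receptor gene, 16 and 39, and the translation initiation factor gene EIF4G3 39 and 60. ACACA, which encodes acetyl-CoA carboxylase, had 2 and 21. XPO1, the nuclear export receptor gene, had fewer peaks upon shRNA7, 2 against 13, but 99.3% of its body was covered against 70.3%. In CLTC, SPEN and SLIT2 both measures were lower upon shRNA7, with 54.5%, 59.5% and 25.6% covered against 68.5%, 76.6% and 39.2% upon shRNA5.

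Along genes of at least 20 kb, more genes lay under an shRNA7 than an shRNA5 peak at every distance measured. The 4583 genes followed were chosen for a TSS peak in both lists, so their shares at the TSS itself, 96.3% upon shRNA5 and 99.0% upon shRNA7, are set by that choice. No control peak was required, and the short control list had a peak at 33.2% of these TSSs. The lower control shares below therefore depend on the choice of genes and on the length of that list. At 5000 bp downstream the shares were 17.1% (16.0 to 18.2%) upon shRNA5, 34.1% (32.7 to 35.5%) upon shRNA7 and, with the control shRNA, 2.07%, and the shRNA7 share was 28.1% when its peaks above 5% FDR were left out. At 20000 bp they were 8.16%, 14.9% and 1.27%. Both hairpin lists had a second maximum 1000 to 1500 bp past the annotated end of the gene, where at 1500 bp the shares were 32.1% upon shRNA5, 47.9% upon shRNA7 and 6.96% with the control shRNA. The ratio of shRNA7 to shRNA5 was 2.08 at 4000 bp, 1.49 at the gene end and 1.45 at 10000 bp past it.

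**Figure D5:**
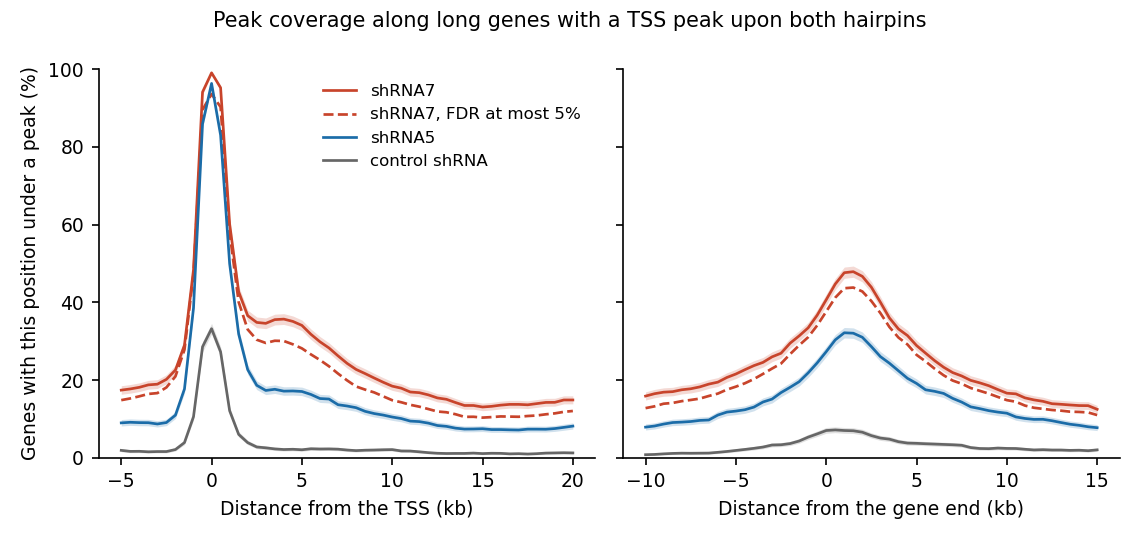
Share of 4583 genes of at least 20 kb (vertical axis, percent) whose position at a given distance from the TSS (left, kb) or the gene end (right, kb) lay under a peak, with shading for 95% Wilson intervals. The shRNA7 line lay above the shRNA5 line along the whole stretch, also at an FDR of at most 5% (dashed) except at the TSS, and both lay above the control shRNA line. Genes were chosen for TSS peaks in both hairpin lists with no control peak required, so the place of the control line depends on that choice.

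Targets of p53, the tumour suppressor that induces growth arrest and cell death genes, stood on the shRNA7 side. All 23 genes of this list had a TSS peak upon shRNA7 and 21 upon shRNA5, the others being CDKN1A and BBC3. Over all genes, 10.6% had a TSS peak upon shRNA7 only. Of 20 with at least 200 tags, 9 lay more than 2-fold above the median ratio and 0 below, beside 18.2% and 3.17% over all genes tested. The list's median tag ratio was 2.996, beside 1.69, and its median ratio of tags per kb 1.39, beside 1.22. Peaks covered 47.7% of their gene bodies upon shRNA7 and 22.0% upon shRNA5, with 18 genes covered more upon shRNA7, 1 less and 4 equally. In the 7550 genes with TSS peaks in both lists, peaks covered 13.4% and 7.63%. Of those genes, 6045 were covered more upon shRNA7 and 948 less, so this direction was not particular to the p53 list.

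MDM2, the ubiquitin ligase that limits p53, had 430 TSS tags in 3099 bp upon shRNA5 and 10460 in a peak of 49316 bp upon shRNA7. Its TSS peak held 242 tags with the control shRNA, 887 without doxycycline and 1471 with it. All peaks overlapping the region of 49316 bp held 2260, 2014 and 3054 tags in these lists. The shRNA5 list divided the locus into 3 peaks with 4395 tags in all, which still covered 99.1% of the gene body. The ratio of TSS tags was thus 24.3 where that of tags per kb was 1.53. PMAIP1, a BCL2-family death gene, had 1688 tags upon shRNA5 and 3733 upon shRNA7 in peaks of similar width, 9064 and 10684 bp. Its density was 186 and 349 tags per kb, beside 809 tags with the control shRNA, 591 and 807. The cyclin gene CCNG1 had 409 and 3105 tags, at 63.7 and 118 tags per kb, while the exonuclease gene AEN shares its peaks of 2075 and 3215 tags with ISG20.

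CDKN1A, the p21 cell-cycle inhibitor gene at chr6:36644237-36655114, had 2972 tags upon shRNA7 in a peak of 15136 bp. The shRNA5 list held no peak within 500 bp of its TSS, but 1 peak of 1048 tags covered 99.0% of the gene body. At this TSS, that of the longest coding transcript, the control shRNA had no peak and the doxycycline pair 9 and 58 tags. Tags elsewhere in the gene are not given for these lists, so the values do not describe other starts of CDKN1A. Further members, chosen after their values were seen, had more of the gene body covered upon shRNA7. FDXR was covered over 2.48% of its body upon shRNA5 and 86.6% upon shRNA7, DDB2 over 28.8% and 97.9%, TP53I3 over 9.42% and 95.1%, and XPC over 5.78% and 72.6%. SESN1 was the exception, with 7.15% and 1.12%.

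Immediate early genes respond within minutes to growth signals and stress. Of 22 matched genes 16 had a TSS peak with both hairpins, ZFP36 with shRNA5 only and KLF2 with shRNA7 only, beside 38.1%, 2.55% and 10.6% of all genes. Of 14 with at least 200 tags 7 lay past 2-fold toward shRNA7 and 0 toward shRNA5, beside 18.2% and 3.17% over all genes tested. The median ratio was 3.09 for tags and 1.54 for tags per kb, beside 1.69 and 1.22. ZFP36 lay in one of the 187 stretches without an shRNA7 peak. JUN, which encodes a subunit of AP-1, had 1313 and 2374 tags upon shRNA5 and shRNA7 at 164 and 264 tags per kb, against 578 tags with the control shRNA, 764 and 660. IER2 had 806 and 1808 tags, at 98.7 and 200 tags per kb, and 77, 30 and 23 in the control and the doxycycline pair. The transcription factor gene EGR1 differed less, with 2480 and 3405 tags at 246 and 275 tags per kb, and 2763, 1420 and 1361 in the other lists.

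The integrated stress response slows translation and activates ATF4. Its genes had TSS peaks with both hairpins at 18 of 20, beside 38.1% of all genes. With 1 hairpin they had one at 0, beside 10.6% (shRNA7 only) and 2.55% (shRNA5 only). Their median tag ratio was 2.13, beside 1.69 over all genes tested, and 6 of 15 lay past 2-fold toward shRNA7 and 0 toward shRNA5, beside 18.2% and 3.17%. ATF4 itself had 2185 and 3568 tags, in 17708 and 19765 bp. DDIT3, the CHOP transcription factor gene, had 900 and 3065 tags in 8498 and 30842 bp, and its density was 106 and 99.4 tags per kb. PPP1R15A, which reverses the translational block, had 1471 and 2003 tags. Heat shock protein genes had a median ratio of 1.59, below the 1.69 over all genes tested. Of these genes 16 of 18 were found with both hairpins, beside 38.1% of all genes. HSP90AB1 had 2162 and 2707 tags in 12612 and 12982 bp. HSPA1B had 377 and 4776, but is a near-identical copy of HSPA1A, so reads may be divided between them.

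Cholesterol synthesis genes held the largest share of shRNA7-only TSS peaks among the 16 lists examined. Of 22 genes 14 had a TSS peak with both hairpins, 7 upon shRNA7 only and 0 upon shRNA5 only, beside 10.6% and 2.55% of all genes. They included MVD, an enzyme gene of the mevalonate pathway, SQLE, which encodes squalene epoxidase, and the later enzyme genes MSMO1, NSDHL, HSD17B7 and DHCR7. The peaks at these genes were small, from 34 tags at DHCR7 and 36 at SQLE to 117 at HSD17B7, and 0 of these genes had a TSS peak with the control shRNA. The genes of the list with most tags were found with both hairpins, such as IDI1 with 328 and 875 tags and SREBF2, the regulator of the pathway, with 224 and 512.

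The genes of the elongation machinery itself were split. Of 29 elongation and pause control genes, 19 had a TSS peak with both hairpins, 6 upon shRNA7 only and 3 upon shRNA5 only, beside 10.6% and 2.55% of all genes. The 3 were PAF1 (2434 tags), CDK12 (351), a kinase of the RNAPII C-terminal domain, and NELFE (129), a subunit of the pausing factor NELF. PAF1 on chromosome 19 and CDK12 on chromosome 17 lay in the 187 stretches, and NELFE did not. CDK12 had 188, 161 and 132 tags with the control shRNA, without and with doxycycline. The 6 included AFF1 (175), NELFCD (157), NELFB (110), CDK9 (70), the kinase that releases paused RNAPII, and SETD2 (70). HEXIM1, an inhibitor of that kinase, had 1091 tags upon shRNA5 and 3817 upon shRNA7 at 128 and 137 tags per kb, and the FACT subunit gene SUPT16H 990 and 1368. Subunits of one complex, such as those of NELF, thus appeared on opposite sides.

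RNAPII subunit genes gave a like picture. The gene of the largest subunit, POLR2A, had 1529 and 1994 tags at 125 and 158 tags per kb. POLR2I had 220 tags upon shRNA5 only, beside 124, 88 and 107 in the control and the doxycycline pair, and POLR2H 273 tags upon shRNA7 only, beside none, 88 and 18. The other 10 genes were 9 with both and 1 with neither. Over all genes, 10.6% had a TSS peak upon shRNA7 only and 2.55% upon shRNA5 only. POLR2I, on chromosome 19, lay in one of the 187 stretches, as did TOP2A and CDC6 on chromosome 17. Among RecQ helicases and topoisomerases, 8 of 12 had TSS peaks in both lists, 2 upon shRNA7 only and 1 upon shRNA5 only, beside 38.1%, 10.6% and 2.55% of all genes. TOP2A, the topoisomerase of dividing cells, had 315 tags upon shRNA5 only and 150, 78 and 154 in the other lists, while its relative TOP2B had 78 upon shRNA7 only and 20 without doxycycline. BLM, the Bloom syndrome helicase gene, had 308 and 376 tags. RECQL4 had 47 and 1575, with the shRNA7 summit 6892 bp from its TSS.

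Replication initiation genes had a median tag ratio of 1.36, and 14 of 17 were found with both hairpins, beside 38.1% of all genes. A TSS peak was found upon shRNA7 only at 1 and upon shRNA5 only at 1, beside 10.6% and 2.55% of all genes. MCM7, a subunit gene of the replicative helicase, had 1795 and 2447 tags in 14205 and 14780 bp, whose summits lay 9661 and 9782 bp past its TSS. CDC6, a licensing factor gene, had 604 tags upon shRNA5, none upon shRNA7 and 168, 171 and 231 in the control and the doxycycline pair. Among splicing factor genes of the SR family, SRSF3 had 3869 and 5850 tags and SRSF2 2046 and 3532, and TRA2B and SRSF4, both in the 187 stretches, had TSS peaks upon shRNA5 only. Of the 14 genes of this list, 9 were found with both hairpins, 1 upon shRNA7 only and 2 upon shRNA5 only. Over all genes these shares were 38.1%, 10.6% and 2.55%.

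The ribosomal protein genes were alike in presence. Of 79 cytosolic ribosomal protein genes 76 had a TSS peak with both hairpins and 0 with 1 hairpin. Among all genes, 38.1% had one with both, 10.6% upon shRNA7 only and 2.55% upon shRNA5 only. All 76 ribosomal protein genes passed 200 tags. Their median tag ratio was 1.49 and their median ratio of tags per kb 1.26, beside 1.69 and 1.22 over all genes tested, with 7 past 2-fold toward shRNA7 and 0 toward shRNA5, beside 18.2% and 3.17%. RPS19 had 3251 tags in 18205 bp upon shRNA5 and 4638 in 19329 bp upon shRNA7, RPL37 2694 and 3341, and RPS4X 2901 and 4349. The density ratios of these genes were 1.34, 1.21 and 1.47. RPL23A differed, with 2193 tags in 13229 bp and 5450 in 38947 bp and a density ratio of 0.844.

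Proteasome subunit genes lay lower. Of 31 genes, 22 were found with both hairpins, 3 with shRNA7 only (PSMA7, PSMB6, PSMD13) and 3 with shRNA5 only (PSMC4, PSMD3, PSMD8), beside 10.6% and 2.55% of all genes. The last 3 are on chromosomes 17 and 19, and PSMC4 and PSMD8 lay in the 187 stretches without an shRNA7 peak. Of 17 with at least 200 tags 0 lay past 2-fold toward shRNA7 and 3 toward shRNA5, beside 18.2% and 3.17% of all genes. The 3 past 2-fold toward shRNA5 were PSMB2, PSMB5 and PSMC1, with ratios of 0.735, 0.748 and 0.735, and the list's median ratio was 1.22. PSMC5 and PSMD7, which had the most tags, had 2214 and 3470, and 1094 and 1330.

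Among 17 glycolysis enzyme genes, 9 were found with both hairpins, PFKL with shRNA7 only and GPI, ALDOC and PGK1 with shRNA5 only, beside 10.6% and 2.55% of all genes. GPI on chromosome 19 and ALDOC on 17 lay in the 187 stretches, and PGK1 did not. PGK1, on chromosome X, had 264 tags upon shRNA5, none upon shRNA7 or with the control shRNA, 22 without doxycycline and none with it. GAPDH had 1052 and 2630 tags at 123 and 179 tags per kb, and PKM 1209 and 2349 at 89.9 and 161. Of 34 interferon-stimulated genes 15 had no TSS peak in either list, 1 had one upon shRNA7 only and 1 upon shRNA5 only. Over all genes these shares were 48.8%, 10.6% and 2.55%. ISG15 had 770 and 2823 tags, with the shRNA7 summit at -4610 bp from its TSS, and the antiviral genes OAS3 (36 tags, shRNA5) and DDX60 (48 tags, shRNA7) were each found with 1 hairpin.

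Common fragile site genes are very long and little occupied here. Of 22 genes 6 had a TSS peak with both hairpins, MACROD2, IMMP2L and MAGI2 with shRNA7 only, and 13 with neither. Over all genes these shares were 38.1%, 10.6% and 48.8%. Peaks covered 0.0650% of the gene bodies of the list upon shRNA5 and 0.161% upon shRNA7. Of the 6 genes the study followed singly, ITPR1, the calcium channel gene, had 185 and 218 tags, OPA1 87 and 88, and CTNNBL1 49 and 90. IFT80, a ciliary transport gene in one of the 187 stretches, had 1259 tags in 16354 bp upon shRNA5 and none upon shRNA7, beside 87, 132 and 175 in the control and the doxycycline pair.

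The labelled cell line was checked on marker genes. VIM, ENO1 and TUBB3 had TSS peaks with both hairpins, LIN28B had 6 and 12 gene-body peaks without a TSS peak, and INA had none in either hairpin list. Markers of blood (PTPRC, CD3E), liver (ALB, APOA1), heart (MYH6) and squamous epithelium (KRT5) had no TSS peak and no gene-body peak upon shRNA5 or shRNA7.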

How the data were processed

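RNAPII ChIP-seq of HEK293 cells was analysed from the peak lists the authors deposited, 1 per RNAPII library. Per the labels and the study's methods, reads were processed with CASAVA 1.8, aligned to hg19 (GRCh37) with Bowtie 0.12.7, and peaks were called with MACS 1.4.2 against an IgG library. The labels list 4 IgG libraries, 1 for each shRNA and 1 titled only as a control, without a doxycycline dose. The deposited number of tags per peak is a raw count, not normalised for depth. The authors' p-value is deposited as −10 times log10, a score. The deposited fold enrichment of a peak is a ratio over local background and was used only to describe it. The FDR is deposited in percent. The study's methods state similar read numbers within the hairpin experiment and within the doxycycline experiment, with fewer in the latter. A total for each library was not used here, so the part of depth in the length of a list was not tested.

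Groups were taken from the sample labels. Genes are protein-coding genes of GENCODE release 44 lifted to GRCh37, by their longest coding transcript. Overlap required 1 bp. Tags given for a gene are those of peaks within 500 bp of its TSS, unless a region or gene body is named. A gene-body peak overlapped the transcript beyond the first 500 bp and left the TSS window free. Since every group was 1 library, conditions were not tested against each other. Shares carry 95% Wilson intervals, count ratios the same limits as odds, and medians intervals from order statistics. Genes named were RECQL5, those with most tags, extreme ratios or surpluses, and the 4 members of each gene list with most TSS tags, besides those said to be chosen later and the list members found with 1 hairpin. Some genes that these rules name are not reported here. The members, lists and rules were chosen with earlier results of these data known. Alternatives were stricter scores and FDR, other overlap rules, equal list lengths, a 1 kb TSS window and other scalings. The functions were tested on simulated lists. Python 3.11.15, pandas 2.3.3, numpy 2.4.6 and scipy 1.17.1 were used.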

Additional observations from a re-analysis of the deposited data

How the results depend on the processing

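Of 65 recomputed values, 27 stayed within the interval of the reported value (for counts of genes or peaks, within 1.5-fold), 38 moved. Which hairpin had more turned for gene-body peaks and for the promoter-proximal share of 1-hairpin peaks at an FDR of at most 5%. It also turned for joint regions past 2-fold by single pairs and by total tags. In what follows the shRNA5 share or count is given first. The shared shares were 46.0% and 33.9% with 50% of both peaks required, 47.3% and 34.9% with summits within 500 bp, 79.5% and 63.6% with lists of equal length, 77.4% and 67.1% with an FDR of at most 5%, and 86.5% and 51.0% without chromosomes 17 and 19. With a score of at least 100 the shRNA5 share was 87.1%. Promoter-proximal shares of the 1-hairpin peaks were 34.8% and 27.0% with that score, 20.01% and 21.2% with that FDR, and 19.3% and 18.5% with the 1 kb window. Genes with a TSS peak upon 1 hairpin numbered 910 and 1362 with that FDR, and 782 upon shRNA5 with equal lengths and 305 without chromosomes 17 and 19. Genes with more gene-body peaks upon shRNA7 numbered 1984 with that score, 1682 with that FDR and 1964 with equal lengths, and 6045 by bases covered. Those with more upon shRNA5 numbered 726 with that score. Joint regions past 2-fold were 2.91% and 0.806% for single pairs sharing 50% of both peaks, 0.0267% and 0.0802% in tags per kb, and 7.21% and 6.04% scaled to total tags, with 3.39% toward shRNA5 at that FDR. Median AT contents were 52.9% and 56.9% with that score, 57.6% and 58.9% over whole peaks, and 58.0% for shRNA7 at that FDR. The stricter filters and equal lengths leave fewer peaks. The cause of the other moves was not tested. The alternatives on any TSS, covered bases, recurrent peaks and chromosomes were added after seeing the data. No paired analysis was possible because a single library stood for each hairpin, and for that reason no replicate could be left out. The lists give no signal between peaks, so a missing peak is no measurement of absent RNAPII.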
